A study of Homo sapiens with 6 samples.

Results

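The TAM receptors AXL, TYRO3 and MERTK, their ligands GAS6 and PROS1, the receptors MET and MST1R and the MET ligand HGF were followed in renal cancer cells with YB1 knockdown. They were chosen by name, and all 8 are present among the 20030 genes of the deposited expression table. In shYB1 cells AXL rose by 44.0% and GAS6 by 26.1% in mean level. TYRO3 rose by 21.6%, a call that was lost in 7 of 14 alternatives. The highest-expressed member, MET, had a percent change of −5.56%, which missed the test but passed in 1 of 15 alternatives. PROS1 passed the test in no alternative, MERTK overlapped between the groups, and MST1R and HGF were listed at or near 0.

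The TAM receptors are receptor tyrosine kinases that bind GAS6 and protein S, the product of PROS1. These vitamin K-dependent proteins bridge the receptors to phosphatidylserine on membranes. MET is the receptor of hepatocyte growth factor (HGF) and drives cell scattering, migration and growth, and MST1R (RON) is its close relative, which binds macrophage-stimulating protein. In clear cell renal cell carcinoma (ccRCC), AXL and MET are known for their part in invasion and in resistance to kinase inhibitors such as sunitinib, and both are targets of cabozantinib.

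The cells were 786-O, an established human ccRCC-derived line that lacks functional VHL. The vector group carried a scrambled shRNA and the shYB1 group shRNA against YB1, the Y-box binding protein encoded by YBX1. An shRNA is a hairpin RNA that lowers the mRNA it matches. Both groups were stable lines made with lentivirus and selected with puromycin, at passages 16 to 18 and harvested after the selection, and no other treatment is given for either. Each group had 3 libraries. The series' design text speaks of 3 shRNAs against YB1, whereas the labels name a single shYB1 group of 3 libraries, so it is not known whether these carried the same hairpin or different ones. Whether the libraries came from separate cultures or clones is not stated either. P-values therefore measure only the spread between these libraries, which may be technical or lie between hairpins. Values are FPKM, fragment counts divided by transcript length and library size, and can be compared between genes because they are per length.

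Facts of the whole table were as follows. FPKM totals were 282736 to 295887 per library. The absolute depth is unknown, and relative depth, read from the spacing of the lowest values, was 0.958 to 1.09 times that of shYB1 replicate 1. YBX1 had 366, 373 and 378 FPKM in vector and 167, 166 and 173 FPKM in shYB1 libraries (log2 fold change −1.14, standard error 0.031, adjusted p = 1.53e-08 by limma). Of 12 markers of renal epithelial and ccRCC cells, 11 had a mean of at least 1 FPKM, among them PAX8 at 77.1 and 77.5 FPKM in the vector and shYB1 groups. The exception, NDUFA4L2, was at 0.323 and 0.223 FPKM. Markers of other cell types were then read. The 7 markers of fibroblasts and mural cells, a usual source of HGF, summed to 4.62 to 4.74 FPKM in vector and 4.50 to 5.34 FPKM in shYB1 libraries. Most of this came from LUM, with means of 2.06 and 2.31 FPKM, and ACTA2, with 2.09 and 1.97 FPKM, in the vector and shYB1 groups. COL1A2 was at 0 in every library. The leukocyte list summed to 26.7 to 27.0 and 24.7 to 25.4 FPKM, most of it from CD68, at 24.7 to 25.4 FPKM in vector and 22.1 to 22.6 FPKM in shYB1 libraries. CSF1R was at 1.58 to 2.02 FPKM in vector and 2.54 to 2.74 FPKM in shYB1 libraries, with no overlap. PTPRC was at 0 or under 0.02 FPKM, and CD163, CD3E and MS4A1 were at 0 throughout. The part of the CSF1R and CD68 differences in the results was not tested. The 4 endothelial markers summed to 0.523 to 0.564 and 0.436 to 0.524 FPKM. PECAM1 had means of 0.384 and 0.278 FPKM and TEK 0.154 and 0.188 FPKM in the vector and shYB1 groups. VWF was at or near 0, and CDH5 was at 0. In bulk RNA, fewer cells with a transcript and less of it per cell cannot be told apart.

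The level of each receptor and ligand was first put in order. In vector cells MET was highest, at 100.5 FPKM, followed by AXL at 50.3, GAS6 at 12.6, PROS1 at 5.72, TYRO3 at 2.74 and MERTK at 0.978 FPKM. Each of these was at least 1.31 times the next in both groups, and no neighbours in this order overlapped between libraries of a group. MET stood at or above 98.0% and AXL at or above 95.7% of all genes listed, by mean level in the vector group. The order was the same in shYB1 cells, where the mean of MET was 1.31 times that of AXL against 2 times in vector cells.

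**Figure D1:**
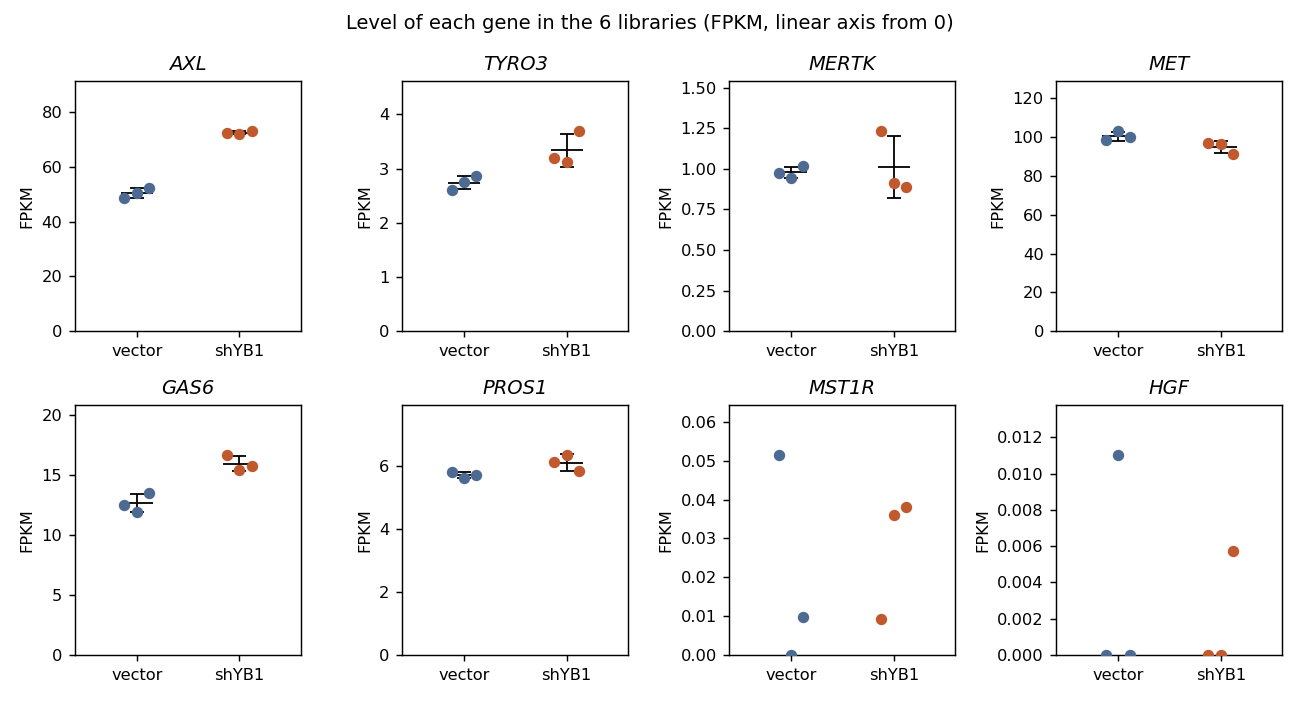
FPKM (linear axis from 0) of the 8 genes in the 3 vector (blue) and 3 shYB1 (orange) libraries, with mean and SD as black bars except for MST1R and HGF. AXL, GAS6 and TYRO3 lie higher in all 3 shYB1 libraries, MERTK overlaps between the groups, and MST1R and HGF stay under 0.06 FPKM.

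AXL showed the clearest difference. The vector libraries, in the order of their replicate numbers, held 48.5, 50.4 and 52.1 FPKM, and the shYB1 libraries 72.2, 72.0 and 73.0 FPKM. The lowest shYB1 library was well above the highest vector library, and the shYB1 libraries lay close together. Means rose from 50.3 ± 1.82 to 72.4 ± 0.531 FPKM (SD, n = 3 each). On the log2 scale the rise was 0.53 (95% confidence interval 0.45 to 0.60, standard error 0.035), and limma gave an adjusted p of 7.31e-06 over the 10439 genes tested. By the exact permutation test of the 6 libraries p was 0.1, the smallest that 3 against 3 allows. Only 88 of the genes called higher had a larger log2 fold change. The gene is on the plus strand of chromosome 19 (GRCh38, 41219203 to 41261766), with 20 exons.

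TYRO3, the TAM receptor best known from the nervous system, was low, with vector libraries at 2.61, 2.75 and 2.87 FPKM and shYB1 libraries at 3.19, 3.12 and 3.69 FPKM. All shYB1 libraries were above all vector libraries, and shYB1 replicate 3 stood highest. Mean levels were 2.74 ± 0.128 and 3.34 ± 0.312 FPKM (SD, n = 3 each), a log2 rise of 0.27 (standard error 0.083, adjusted p = 0.0366 by limma). This call was near the threshold. It was lost in 7 of 14 alternatives, where limma gave an adjusted p of 0.0833 after median-of-ratios scaling and of 0.122 without shYB1 replicate 3, within a range over all of them of 0.0305 to 0.122. The call did not hold either without vector replicate 1 (0.112), without vector replicate 2 (0.0767) and without shYB1 replicate 1 (0.056), by the same limma test. TYRO3 (chromosome 15, 41557675 to 41583586, plus strand) shares 4.65% of its 50-base words with other genes, the pseudogene TYRO3P foremost, and how such reads were assigned is not stated.

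MERTK, which mediates the engulfment of dying cells by phagocytes, was near 1 FPKM throughout, at 0.975, 0.945 and 1.02 FPKM with the vector and at 1.23, 0.910 and 0.889 FPKM with shYB1. The groups overlapped, with both the highest and the lowest value in shYB1 libraries. Its mean over the 6 libraries, 0.995 FPKM, lay just under the filter of 1 FPKM, so it had no adjusted p in the main fit. With the filter at 0.5 FPKM, an alternative chosen after seeing the data, its log2 fold change was 0.03 (95% confidence interval −0.27 to 0.33, adjusted p = 0.896 by limma). Its gene spans 111898479 to 112029561 of chromosome 2, plus strand.

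Summed over the 3 TAM receptors, FPKM were 52.05 to 55.98 in vector and 76.1 to 77.6 in shYB1 libraries. AXL made up 93.1 to 93.2% of this sum in vector cells and 94.1 to 94.7% in shYB1 cells. MERTK made up 1.75 to 1.87% and 1.15 to 1.61%. By FPKM, TAM receptor mRNA was thus almost all AXL in both groups. The groups did not overlap in these shares, with p = 0.1 for each by the exact permutation test. AXL, the receptor that rose most, is most of the sum, so its mean share was bound to be higher and that of the others together lower. The shares restate the rise of AXL and are not separate results.

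Of the TAM ligands, GAS6 binds AXL, TYRO3 and MERTK, with the highest affinity for AXL. Vector libraries held 12.5, 12 and 13.5 FPKM of it and shYB1 libraries 16.7, 15.4 and 15.7 FPKM. Every shYB1 library was above every vector library. Its mean rose from 12.6 ± 0.764 to 15.9 ± 0.658 FPKM (SD, n = 3 each), by 0.33 on the log2 scale (95% confidence interval 0.21 to 0.45, standard error 0.055), with an adjusted p of 0.00188 by limma. GAS6 is a 15-exon gene on the minus strand of chromosome 13 (113820549 to 113864067). The antisense gene GAS6-AS1 overlaps it over 25196 bases and shares 3.94% of its 50-base words. Whether counting used strand is not stated, so reads from the shared words cannot be assigned to one gene of the pair.

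PROS1 encodes protein S, an anticoagulant cofactor that activates TYRO3 and MERTK but not AXL. Vector libraries had 5.81, 5.62 and 5.73 FPKM, and shYB1 libraries 6.13, 6.37 and 5.85 FPKM. The shYB1 libraries were all higher, replicate 3 only just so. The log2 fold change of 0.09 (95% confidence interval −0.03 to 0.22) was not past the test (adjusted p = 0.244 by limma), and it was 0.04 after median-of-ratios scaling. PROS1 (chromosome 3, 93873033 to 93980003, minus strand) shares 6.22% of its 50-base words with its pseudogene PROS2P. GAS6 made up 68.0 to 70.1% of the summed FPKM of both ligands in vector and 70.8 to 73.1% in shYB1 libraries.

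MET was abundant in all libraries, at 98.4, 103 and 99.98 FPKM with the vector and at 96.8, 96.8 and 91.3 FPKM with shYB1. All shYB1 libraries were below all vector libraries, though by little. Group means were 100.5 ± 2.48 and 94.9 ± 3.19 FPKM (SD, n = 3 each), a log2 difference of −0.08 (95% confidence interval −0.16 to −0.0034, standard error 0.036), which did not pass (unadjusted p = 0.0425, adjusted p = 0.115 by limma). After median-of-ratios scaling it was −0.14 with an adjusted p of 0.0147, and over the alternatives of this limma test the adjusted p ranged from 0.0147 to 0.331. The 21-exon gene spans 116672390 to 116798386 of chromosome 7, plus strand.

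The other members of the MET branch were hardly present. MST1R was listed at 0.0516, 0 and 0.00974 FPKM with the vector and at 0.0093, 0.0361 and 0.038 FPKM with shYB1, and the groups overlapped. HGF was listed at 0 in 4 of the 6 libraries, 2 in each group, and at 0.011 FPKM in vector replicate 2 and 0.00573 FPKM in shYB1 replicate 3. No fold change was formed for either gene. MST1R lies on chromosome 3 from 49887002 to 49903873 and HGF on chromosome 7 from 81699008 to 81770438, both on the minus strand. MST1, the gene of the MST1R ligand, which is not one of the 8, had 0.992, 1.29 and 0.854 FPKM in vector and 0.857, 0.562 and 0.765 FPKM in shYB1 libraries, with overlapping groups. HGF mRNA was thus at the bottom of the scale beside its receptor MET, whereas AXL and its ligand GAS6 were both well above 1 FPKM.

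Of the 8 genes, 5 passed the filter on low values. At an adjusted p under 0.05 by limma, 3 were higher in shYB1 cells and 0 were lower, and MET was the 1 gene lower at an unadjusted p under 0.05. Over all genes tested, 18.7% were called higher and 6.93% lower. With median-of-ratios scaling 11.2% were called higher and 12.2% lower (23.4% in either direction), and the members called were AXL and GAS6, higher, and MET, lower. This scaling lowers the median over all genes tested, on the log2 scale, from 0.055 to −0.00057. With a block for the replicate number, AXL, GAS6 and TYRO3 were again called higher and 0 members lower, beside 19.9% and 7.28% of all genes (27.1% in either direction). The groups did not overlap in any of the 5, of which 4 were higher and 1 lower, as 30.1% and 12.5% of all genes tested were (42.6% in either direction). A fold change of 2 with a p under 0.05, the screening rule in the study's methods, was met by 0 of the 5 and by 0.22% of all genes.

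**Figure D2:**
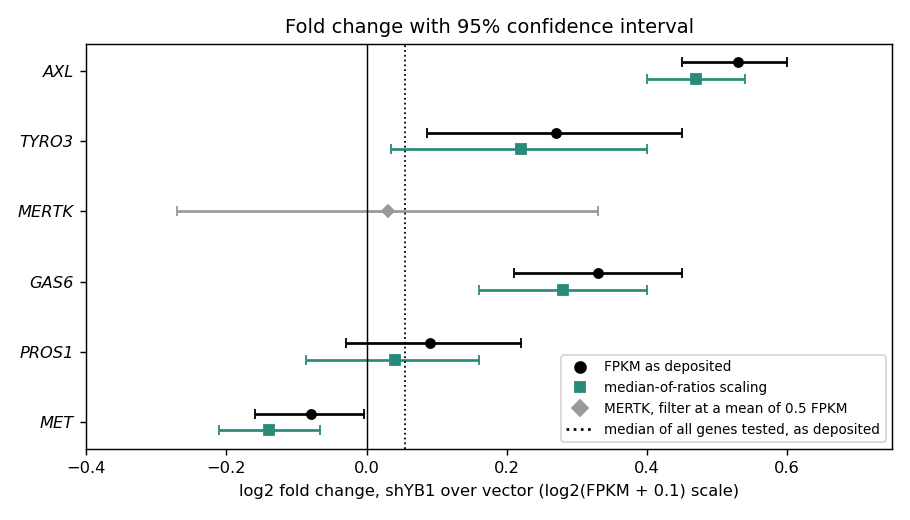
Log2 fold change of shYB1 over vector on the log2(FPKM + 0.1) scale with 95% confidence interval, for FPKM as deposited (black) and after median-of-ratios scaling (green), with MERTK in grey from the lower filter. The dotted line is the median of all genes tested, at 0.055. AXL, GAS6 and TYRO3 lie to the right of 0 under both scalings, and MET lies to the left.

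Levels were next set against AXL within each library, since a ratio within a library does not depend on how libraries were scaled. The log2 ratio of MET to AXL was 1.02, 1.03 and 0.94 in vector and 0.42, 0.43 and 0.32 in shYB1 replicates 1 to 3, a difference in means of −0.61. The ratio of PROS1 to AXL differed by −0.43, that of TYRO3 to AXL by −0.26 and that of GAS6 to AXL by −0.19. In all 4 ratios the shYB1 libraries were below the vector libraries with no overlap. AXL, the member that rose most, is the shared denominator, so each ratio was bound to have a lower mean. The 4 differences restate the rise of AXL and are not separate results. By the two-sided exact permutation test p was 0.1 for each, the smallest that 3 libraries against 3 allow, and 0.1 after Benjamini-Hochberg adjustment over the 4 ratios. The ratio of GAS6 to AXL FPKM was 0.237 to 0.258 in vector and 0.214 to 0.231 in shYB1 libraries.

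**Figure D3:**
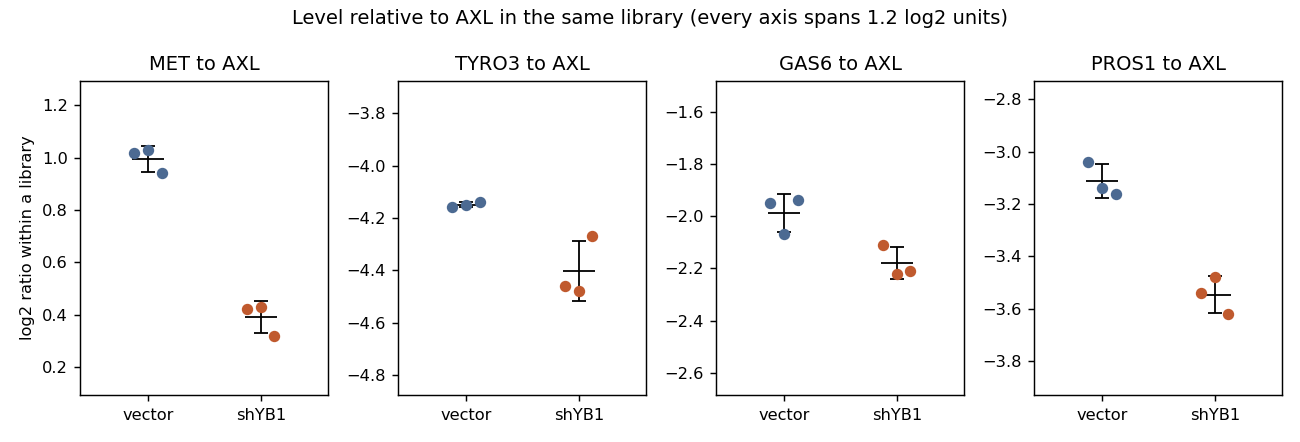
Log2 ratio of MET, TYRO3, GAS6 and PROS1 to AXL in the same library, for the 3 vector (blue) and 3 shYB1 (orange) libraries with mean and SD, each vertical axis spanning 1.2 log2 units. All 4 ratios are lower in shYB1 libraries, with differences from −0.61 for MET to −0.19 for GAS6. They share AXL, the member that rose most, as denominator.

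The sequence just upstream of the RefSeq gene starts was read because YB1 takes its name from the Y-box, the letters CCAAT or, on the other strand, ATTGG. Windows of 250 bases before the RefSeq gene start (GRCh38.p14) were found for all 8 genes. Except for MST1R, these starts differ from those of the gene spans given above, which are from GENCODE. The windows of PROS1, TYRO3 and HGF lie inside those spans, and the windows of AXL and MERTK run across their starts. The windows of AXL and GAS6, the genes whose rise held in every alternative, and of MET, the most abundant member, are shown 5′ to 3′ on the gene's strand. Capitals mark GC boxes (GGGCGG or CCGCCC), the letters bound by Sp1-type factors, with overlapping matches counted.
AXL, chr19:41218973-41219222, plus strand: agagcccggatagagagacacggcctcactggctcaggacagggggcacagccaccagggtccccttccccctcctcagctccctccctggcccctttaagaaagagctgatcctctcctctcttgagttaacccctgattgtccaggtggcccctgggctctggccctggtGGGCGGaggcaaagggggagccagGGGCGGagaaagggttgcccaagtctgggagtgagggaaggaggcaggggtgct
GAS6, chr13:113864077-113864326, minus strand: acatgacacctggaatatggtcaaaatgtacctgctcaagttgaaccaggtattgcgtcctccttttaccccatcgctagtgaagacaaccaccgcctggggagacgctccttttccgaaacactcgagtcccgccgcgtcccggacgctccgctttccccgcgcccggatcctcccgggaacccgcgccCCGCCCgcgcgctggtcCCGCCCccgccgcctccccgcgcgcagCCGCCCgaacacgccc
MET, chr7:116671946-116672195, plus strand: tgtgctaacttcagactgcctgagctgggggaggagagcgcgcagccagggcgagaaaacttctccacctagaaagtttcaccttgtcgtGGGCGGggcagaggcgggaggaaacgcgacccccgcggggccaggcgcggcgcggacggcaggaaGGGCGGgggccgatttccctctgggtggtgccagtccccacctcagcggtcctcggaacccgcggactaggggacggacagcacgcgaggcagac

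None of the 8 windows held the Y-box letters, which occur in 32% of 34943 promoter windows of the same length. That says only that these letters are not in these 250 bases. GC boxes were found in 7 of the 8 windows, all but that of HGF, against 42.5% of all windows, with 2 in AXL, 3 in GAS6 and 2 in MET. The AP-1 letters TGANTCA, which read as the same motif on both strands, were in the TYRO3 window only (6.59% of all windows). The TEAD letters GGAATG or CATTCC were in the HGF window only (11.9%), and the hypoxia response core ACGTG or CACGT was in none (18.5%). GC content was 64.4% in the AXL window, 66.8% in GAS6 and 68.4% in MET, above the median of 58.0% over all windows, while PROS1 (57.6%) and HGF were below it.

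The other genes of the system were read from 7 lists, set by role. They hold 102 genes, of which 77 were tested. At an adjusted p under 0.05 by limma 12 were higher and 9 lower in shYB1 cells, together 27.3% of those tested, beside 25.7% of all genes. By direction, 15.6% were higher and 11.7% lower, beside 18.7% and 6.93% of all genes. After median-of-ratios scaling 3 were higher and 15 lower, or 3.9% and 19.5%, beside 11.2% and 12.2% of all genes. The median log2 fold change was 0.038, against 0.055 for all genes, and −0.018 against −0.00057 after that scaling.

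HGF and macrophage-stimulating protein are cleaved to their active forms by serine proteases that SPINT1 and SPINT2 restrain. Of 15 genes of this step, 5 were tested. Beside 18.7% and 6.93% of all genes, 2 were higher (40.0%) and 0 lower. PLAU, the gene of urokinase, went from 23.9 ± 1.34 to 26.9 ± 0.0881 FPKM and SPINT2 from 164 ± 4.64 to 180 ± 4.80 FPKM (SD, n = 3 each), and neither passed after median-of-ratios scaling. The HGF-activating proteases HGFAC, ST14 and HPN had group means under 0.25 FPKM. GAS6 and protein S need gamma-carboxylation, done by GGCX with vitamin K recycled by VKORC1. In that list 6 of 10 genes were tested, and 3 were higher and 0 lower. NQO1, a quinone reductase, rose from 32.5 ± 1.41 to 42.1 ± 0.972 FPKM (SD, n = 3 each, log2 fold change 0.37, adjusted p = 0.000168 by limma). VKORC1 and PCSK7 rose by 0.12 and 0.23 on the log2 scale, with adjusted p of 0.257 and 0.0514 by limma after median-of-ratios scaling. GGCX had 8.22 and 7.43 FPKM in the vector and shYB1 groups (adjusted p = 0.061 by limma, and 0.0186 after that scaling). LGALS3, galectin-3, which has been described as a further MERTK ligand, fell from 199 ± 8.26 to 174 ± 3.07 FPKM (SD, n = 3 each, log2 fold change −0.19, adjusted p = 0.0038 by limma). TUB and TULP1, the other genes of that list, were at or near 0.

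AXL, MERTK and MET are shed from the cell surface by ADAM10 and ADAM17, and TIMP1 is an inhibitor of metalloproteases. Of 10 genes of shedding and cleavage, 9 were tested. Beside 18.7% and 6.93% of all genes, 0 were higher and 1 was lower (11.1%). It was TIMP1, at 147 ± 7.26 and 128 ± 4.37 FPKM (SD, n = 3 each, log2 fold change −0.20, adjusted p = 0.00696 by limma). ADAM10 had 39.1 and 37.2 FPKM and ADAM17 8.50 and 7.71 FPKM in the vector and shYB1 groups, and neither passed (adjusted p = 0.229 and 0.0841 by limma), though both did after median-of-ratios scaling (0.0373 and 0.023).

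Coreceptors and partner receptors held both the largest fall, in ICAM1, and the largest rise, in ITGA6, among the tested genes of the 7 lists. Of 14 genes 13 were tested, 4 were higher and 2 lower, against 1 higher and 3 lower after median-of-ratios scaling. These were 30.8% and 15.4%, beside 18.7% and 6.93% of all genes. After that scaling they were 7.69% and 23.1%, beside 11.2% and 12.2%. ICAM1, an adhesion molecule that can act as a MET coreceptor, fell from 75.6 ± 1.38 to 44.6 ± 0.973 FPKM (SD, n = 3 each, log2 fold change −0.76, adjusted p = 4.74e-07 by limma). NRP1, a coreceptor for several growth factors, fell from 35.1 ± 0.928 to 26.0 ± 0.632 FPKM (log2 fold change −0.43, adjusted p = 4.75e-05 by limma). ITGA6, an integrin subunit that pairs with the MET partner ITGB4, rose from 2.88 ± 0.241 to 4.01 ± 0.173 FPKM (log2 fold change 0.47, adjusted p = 0.00208 by limma). ITGB4 itself went the other way, with means of 1.43 and 1.16 FPKM (log2 fold change −0.29), but was not called. Its adjusted p was 0.099 by limma, and 0.0597 after median-of-ratios scaling. EGFR, which forms complexes with both AXL and MET, rose from 38.0 ± 1.46 to 43.7 ± 2.68 FPKM (log2 fold change 0.20, adjusted p = 0.0143 by limma, and 0.0626 after median-of-ratios scaling). EPHA2 and ITGB1 were also called higher, by 0.12 and 0.1 on the log2 scale (adjusted p = 0.0178 and 0.0358 by limma). They did not pass after that scaling either (0.126 and 0.279), and NRP2 was called lower only then (0.0183). The study states that EphA2 mRNA was not significantly changed in its sequencing, where its screening rule asked for a fold change of 2.

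Adaptors and signal relays carry the signal of both receptor families to RAS, PI3K and STAT3. Of 30 genes 27 were tested, 2 were higher, 3 were lower and 22 were not called, against 1 higher and 5 lower after median-of-ratios scaling. These were 7.41% higher and 11.1% lower, beside 18.7% and 6.93% of all genes. After that scaling they were 3.7% and 18.5%, beside 11.2% and 12.2%. CRK and NCK2 rose by 0.25 and 0.20 on the log2 scale, the latter with an adjusted p of 0.0876 by limma after median-of-ratios scaling. PIK3R1, the regulatory subunit of PI3K, fell from 5.29 ± 0.284 to 4.28 ± 0.277 FPKM and STAT3 from 22.8 ± 1.35 to 19.1 ± 0.146 FPKM (SD, n = 3 each, adjusted p = 0.0109 and 0.0039 by limma). PTPN11, the phosphatase SHP2, was also lower (adjusted p = 0.0365 by limma), and SOS2 and VAV3 joined only after that scaling (0.0442 and 0.0198). GAB1, the main docking protein of MET, was below the filter, at 0.652 and 0.738 FPKM. GRB2, which links the receptors to RAS, had 28.3 and 28.6 FPKM (adjusted p = 0.812 by limma).

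Of 20 negative regulators 16 were tested. Beside 18.7% and 6.93% of all genes, 1 was higher (6.25%) and 2 were lower (12.5%). Both were suppressors of cytokine signaling, which TAM receptors are known to induce in immune cells. SOCS3 fell from 66.5 ± 0.577 to 44.2 ± 1.68 FPKM (SD, n = 3 each, log2 fold change −0.59, adjusted p = 4.36e-06 by limma). SOCS1 had 4.91, 4.85 and 6.09 FPKM in vector and 3.13, 2.77 and 4.21 FPKM in shYB1 libraries (log2 fold change −0.65, adjusted p = 0.0131 by limma). INPPL1, a lipid phosphatase, went from 24.2 ± 0.683 to 26.5 ± 0.708 FPKM (adjusted p = 0.0358 by limma, and 0.171 after median-of-ratios scaling). CBL, the ligase that marks MET and AXL for degradation, had 5.24 and 5.92 FPKM (adjusted p = 0.122 by limma).

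**Figure D4:**
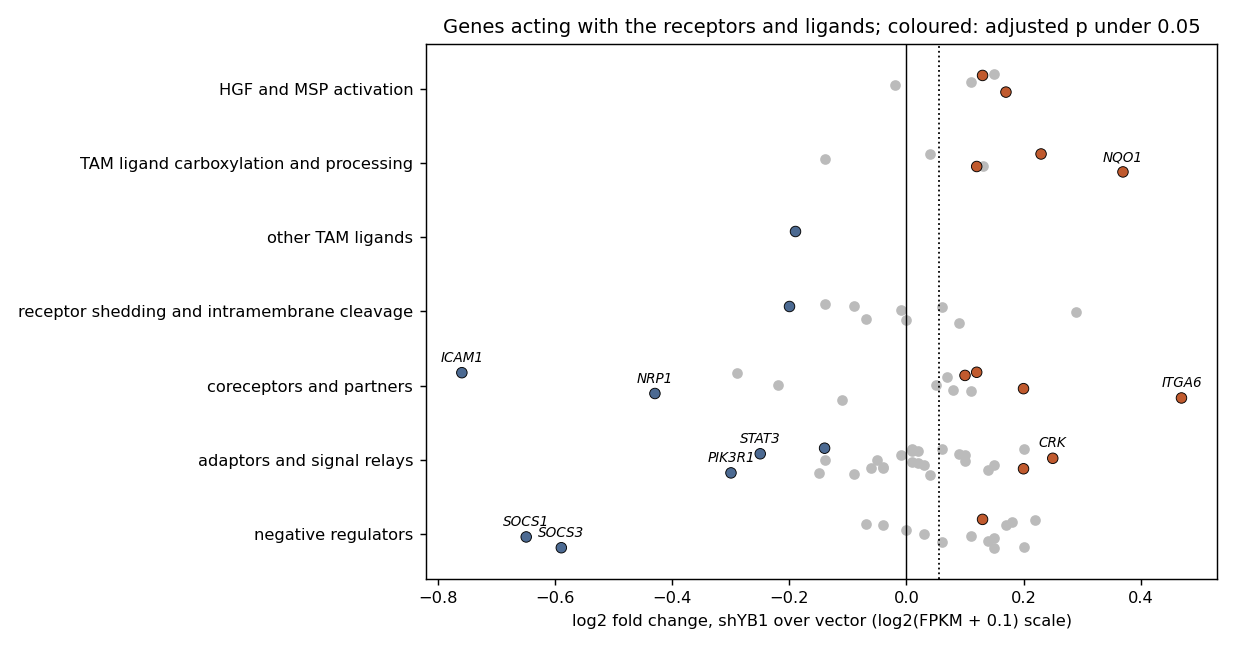
Log2 fold change of shYB1 over vector on the log2(FPKM + 0.1) scale for the 77 tested genes of the 7 lists, 1 point a gene, with vertical scatter added for display. Orange and blue points are genes called higher and lower at an adjusted p under 0.05, grey points were not called, and the dotted line is the median of all genes tested. ICAM1, SOCS1, SOCS3 and NRP1 lie farthest to the left and ITGA6 and NQO1 farthest to the right.

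Among all genes tested, those with the pattern most like AXL over the 6 libraries were TRNP1, WARS and FOSL1. Likeness was the root mean square difference of log2(FPKM + 0.1), each gene centred on its own mean, and it was 0.022, 0.033 and 0.033 for these genes, against a median of 0.25 over all genes. FOSL1, an AP-1 subunit, had a mean of 78.8 FPKM in vector and 111 FPKM in shYB1 cells. WARS, a tryptophanyl-tRNA synthetase gene, had 25.6 and 35.7 FPKM, and TRNP1 had 38.1 and 54.2 FPKM. For MET the 3 nearest were LAMP2, MLEC and IPO7, at 0.0098, 0.010 and 0.012, against a median of 0.12. None of these passed the test (adjusted p = 0.142, 0.171 and 0.139 by limma). For AXL and MET alike the nearest genes were picked out of all tested, so values under the median were bound to follow. The table's own annotation gives AXL, GAS6, MET and HGF the KEGG pathway of EGFR tyrosine kinase inhibitor resistance, and gives none of the 8 a GO term.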

How the data were processed

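The 6 libraries were made from total RNA per the labels. The study's methods head the experiment as a microarray, but the series and its values are from sequencing. The submitters' processing notes name GRCh38, Trimmomatic, HISAT2, Cufflinks, HTSeq and DESeq, with no versions or roles. The authors deposited FPKM for 20030 genes in 1 table, and 0 columns of values were left out. Genes averaging 1 FPKM or more (10439) were taken to log2(FPKM + 0.1), and the shYB1 libraries were tested against vector by limma, version 3.58.1, under R 4.3.3 (trend and robust prior, two-sided, Benjamini-Hochberg adjustment over all genes). Fold changes on this scale understate those of low genes. Ratios used exact permutation tests. Ratios, sequences and figures were made in Python 3.11.15 (pandas 2.3.3, NumPy 2.4.6, matplotlib 3.10.9, SciPy 1.17.1). On simulated data with 200 of 10439 genes changed by 0.5 on the log2 scale, the limma step recovered 199 with 9 false calls. The simulated noise was independent, followed a trend with level and held no shift between libraries. Far fewer genes were changed than were called in the real data. The simulation thus checks that the step runs, and says nothing of calls that move with scaling. FPKM hold no counts, so no interval for counting error was given.

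The 8 genes and the 7 lists were chosen with earlier results of these data known. Named genes were the 8, YBX1 and up to 4 called genes a list with the largest change. The 3 genes most like AXL and MET were also named. GGCX, ADAM10, ADAM17, GRB2, GAB1, CBL, MST1 and EPHA2 were added after their values were seen. So were ITGB1, ITGB4, NRP2, PTPN11, SOS2, VAV3 and the listed genes near 0. Gene positions came from GENCODE release 29 and promoters from RefSeq (of 2 entries each for AXL and TYRO3, the one at the gene's start). Alternatives were other pseudocounts (1 and 0.01), filters (none, 0.5 and 5 FPKM) and scalings (median-of-ratios, common total, quantile), no variance trend, the replicate block and each library left out.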

Additional observations from a re-analysis of the deposited data

How the results depend on the processing

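AXL and GAS6 stayed higher and past the threshold in all 15 alternatives each, with log2 fold changes of 0.47 to 0.55 and 0.27 to 0.38. The differences of the 4 ratios to AXL, which all share the rise of AXL, kept their sign in all alternatives run. TYRO3 stayed higher but missed the threshold with no filter (log2 fold change 0.27), with median-of-ratios scaling (0.22), with quantile normalization (0.22) and in 4 of the 6 fits that left out a library, which gave 0.20 to 0.31. Median-of-ratios scaling and quantile normalization moved most counts, while common total scaling moved them little. Common total scaling gave 778 genes lower and 1934 higher in all, beside 723 and 1956 in the main fit. In the lists it gave 9 lower and 13 higher. Median-of-ratios scaling gave 1 member called lower, MET (−0.14), 1273 genes lower and 1171 higher in all, and 15 lower and 3 higher in the lists. Quantile normalization gave 1184 and 1267, and 14 and 5. Without the variance trend 5 genes of the lists were higher, and with a library left out 5 to 14, with 5 both without shYB1 replicate 1 and without shYB1 replicate 2, 6 without vector replicate 2 and 7 without vector replicate 1. The cause of these moves was not tested. MERTK ranged from −0.11 to 0.11 with a library left out. MST1R and HGF had no value to recompute.

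With the replicate block, 3 members were higher and 0 lower, 10 genes of the lists were lower and 13 higher, and 760 genes were lower and 2074 higher in all, so the block changed no call of a member. Libraries with the same number had deviations from their group means that correlated across genes at −0.169, −0.059 and −0.00824. Libraries with different numbers gave −0.0507 to 0.113. No pairing by number was thus seen, though 3 libraries a group are too few to detect a weak one.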
